A study of Mus musculus with 15 samples.

Results

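The genes of the cyclin-dependent kinase (CDK) inhibitors were followed along spermatogenesis in mouse testis. The 8 genes Cdkn1a, Cdkn1b, Cdkn1c, Cdkn2a, Cdkn2b, Cdkn2c, Cdkn2d and Cdkn3 were taken by symbol from the 32285 genes of the count tables, and all 8 were found. They were chosen on measured values, since the lower Cdkn1c level in spermatids of JQ1-treated mice was known when the set was drawn up. Levels in spermatids of treated mice are therefore given as a description, with no test.

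The study dosed DBA/2J males with JQ1, a small molecule that occupies the bromodomains of BET proteins including the testis-specific BRDT. Group T received 50 mg/kg JQ1 daily by intraperitoneal injection for 3 wk and was taken at once at 10 wk of age, beside vehicle-injected males of the same age (VC-T). Group R received the same course and was taken 6 wk after the last dose at 16 wk of age, beside its own vehicle group (VC-R). Untreated males (UC) were 15 wk old. Each group had 3 libraries, each from a testis of a different mouse, giving 15 libraries in all. Age differs between T and UC and cannot be told apart from treatment in that comparison.

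CDK inhibitors fall into 2 protein families. The INK4 proteins p16INK4a (from Cdkn2a), p15INK4b (Cdkn2b), p18INK4c (Cdkn2c) and p19INK4d (Cdkn2d) bind CDK4 and CDK6 and so keep RB proteins able to hold E2F factors in check. The CIP/KIP proteins p21 (Cdkn1a), p27 (Cdkn1b) and p57 (Cdkn1c) bind cyclin-CDK complexes more broadly. Cdkn3 encodes a phosphatase that removes the activating phosphate from CDKs and belongs to neither family. In the testis, p27 is known from Sertoli cells that have stopped dividing, p18INK4c and p19INK4d from male meiosis, and Cdkn1c is an imprinted gene whose silent paternal copy depends on the long noncoding RNA Kcnq1ot1.

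Cells were grouped by clustering in which the 8 genes were left out, and clusters were named from fixed markers as spermatogonia-like, spermatocyte-like, spermatid-like, spermatozoa-like or Sertoli-like. A further cluster scored close for both spermatogonia and spermatocytes and was kept apart. It is named the Meiob-led cells after Meiob, a meiotic recombination gene among its leading genes, of which Sdk1 stood first. Filters left 72362 cells, of which 62671 were germ cells. Libraries held 9673587 to 98724984 unique molecular identifiers (UMIs), and the median per kept cell ranged from 2455 to 4202.5. At most 0.554% of the barcodes of the smaller of 2 libraries recurred in the larger. Of the markers fixed for each class, 6 of 7 were detected in at least 10% of the spermatogonia-like cells, 7 of 7 in spermatocyte-like, 6 of 6 in spermatid-like, 5 of 5 in spermatozoa-like and 7 of 8 in Sertoli-like cells. Other markers were present too: in Sertoli-like cells 5 of 5 spermatozoa markers were detected and summed to 8287 CPM, beside 7352 CPM for the Sertoli markers, and in spermatid-like cells spermatozoa markers summed to 3977 CPM beside 2859.5 CPM for the spermatid markers. In Meiob-led cells spermatocyte markers summed to 7075 CPM and spermatogonia markers to 604 CPM, beside 2672 CPM of spermatocyte markers in spermatocyte-like cells. Spermatozoa-like cells made up 0.0265% to 0.170% of germ cells in T and 57.6% to 65.9% in UC. The library labelled VC-T 1 held 0 spermatozoa-like cells, against 40.4% and 50.4% in VC-T 2 and VC-T 3, and stood with T rather than with its own group. Whether its label is right was not tested. The study named this library an outlier, attributed this to technical variation and excluded the library from its differential expression tests. Here too it was left out of the VC-T comparisons, and the values with it are given beside them. Levels are UMIs of the gene per 1000000 UMIs (CPM) of all cells of the class in a library, and because reads were tagged at the 3′ end they are not compared between genes.

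The genes lie on 6 chromosomes of mm10. Cdkn2a (ENSMUSG00000044303) at chr4:89274471-89294653 and Cdkn2b (ENSMUSG00000073802) at chr4:89306299-89311039 are neighbours on the minus strand. The p16INK4a and p19ARF transcripts of Cdkn2a end in the same exons, so 3′ counts do not separate them. Cdkn2c (ENSMUSG00000028551) is at chr4:109660876-109667189 and Cdkn2d (ENSMUSG00000096472) at chr9:21288410-21291407, both on the minus strand. Cdkn1c (ENSMUSG00000037664) is at chr7:143458339-143461050 on the minus strand, in the same imprinted region as Kcnq1ot1 at chr7:143203458-143296549. Cdkn1a (ENSMUSG00000023067) at chr17:29090976-29100727, Cdkn1b (ENSMUSG00000003031) at chr6:134920401-134925513 and Cdkn3 (ENSMUSG00000037628) at chr14:46760541-46771669 are on the plus strand.

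Promoters are shown for the 3 genes whose untreated levels followed each other through meiosis and into spermatids. Each is 300 bases of RefSeq sequence on GRCm38.p6, read 5′ to 3′ on the strand of the gene. Capitals mark 3 letter strings searched on both strands: AACNG, the core bound by MYB proteins, of which MYBL1 acts in pachytene spermatocytes, CCAAT, the box bound by NF-Y, and TGACG, part of the site bound by CREB and CREM proteins, of which CREM acts in spermatids. Read on the other strand, AACNG is written CNGTT, the CCAAT box appears as ATTGG, and the third string would appear as CGTCA.
Cdkn2c: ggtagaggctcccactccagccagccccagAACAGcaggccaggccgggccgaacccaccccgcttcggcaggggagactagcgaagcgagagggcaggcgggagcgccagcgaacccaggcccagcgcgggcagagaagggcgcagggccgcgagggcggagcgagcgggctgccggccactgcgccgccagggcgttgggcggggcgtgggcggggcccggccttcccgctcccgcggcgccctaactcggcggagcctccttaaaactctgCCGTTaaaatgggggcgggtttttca
Cdkn2d: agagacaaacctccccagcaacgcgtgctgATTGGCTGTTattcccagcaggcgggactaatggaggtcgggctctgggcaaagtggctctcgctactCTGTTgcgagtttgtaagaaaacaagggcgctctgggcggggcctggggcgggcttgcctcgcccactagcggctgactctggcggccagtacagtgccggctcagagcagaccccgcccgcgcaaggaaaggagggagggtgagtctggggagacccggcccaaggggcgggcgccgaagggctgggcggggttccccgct
Cdkn3: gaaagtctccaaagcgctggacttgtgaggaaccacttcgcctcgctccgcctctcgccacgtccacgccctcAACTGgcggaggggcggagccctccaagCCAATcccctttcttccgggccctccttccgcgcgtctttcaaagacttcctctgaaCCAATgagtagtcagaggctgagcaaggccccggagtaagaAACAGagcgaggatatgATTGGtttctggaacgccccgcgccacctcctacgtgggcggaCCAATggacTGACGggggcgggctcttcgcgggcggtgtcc
The Cdkn2c window, chr4:109666707-109667006 on the minus strand, held 2 AACNG matches and neither of the other strings. It is 1 of 2 windows that the table has for this gene, and the one further upstream. The Cdkn2d window, chr9:21291160-21291459 on the minus strand, held 2 AACNG matches and 1 CCAAT match, the latter directly beside an AACNG match. The Cdkn3 window, chr14:46760291-46760590 on the plus strand, held 2 AACNG matches, 4 CCAAT matches and 1 TGACG match. No match overlapped another. Of 32851 promoter windows of the same length, 80.3% held AACNG, 37.4% CCAAT and 20.8% TGACG. These matches describe the sequence and are not shown to be bound.

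In untreated testis the genes differed in the stage at which they were highest. Among germ cells Cdkn2a was highest in spermatogonia, Cdkn2c and Cdkn2d in spermatocytes, Cdkn3 in spermatids, and Cdkn1c and Cdkn1a in spermatozoa-like cells, while Cdkn1b was close to the counting limit in every germ class. Levels below are means of the 3 UC libraries with their SD. They describe the stages and were not tested, since the clusters were built from the same cells.

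Among the INK4 genes, Cdkn2a stood at 289.5, 224 and 196 CPM in the spermatogonia-like cells of UC 1, UC 2 and UC 3 (237 ± 47.9, SD, n = 3). It was at 61.7 ± 23.7 CPM in Meiob-led cells, 13.4 ± 2.86 in spermatocyte-like and 2.56 ± 0.203 in spermatid-like cells. These ranges did not overlap from one class to the next, so the order from spermatogonia down to spermatids exceeded the spread between libraries. The Sertoli-like range overlapped those of spermatid-like and spermatozoa-like cells.

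Cdkn2c was at 114, 122 and 125 CPM in spermatocyte-like cells of UC (121 ± 5.70), above every other class. In the remaining classes it lay between 19.7 and 37.7 CPM on average, and neighbours in that order overlapped. Cdkn2d also stood highest in spermatocyte-like cells, at 193, 217 and 246 CPM (219 ± 26.4). Sertoli-like cells came next for Cdkn2d at 109 ± 28.5 CPM, then Meiob-led cells at 64.2, spermatogonia-like cells at 37.9 ± 4.18, spermatid-like cells at 25.7 ± 7.57 and spermatozoa-like cells at 7.91. Cdkn2b was low throughout, with 14.9 ± 7.07 CPM in Sertoli-like cells and at most 6.56 CPM in any germ class.

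Cdkn3, the phosphatase gene, was at 625, 655 and 625 CPM in the spermatid-like cells of UC (635 ± 17.5). Spermatocyte-like cells had 292 ± 35.4 CPM and spermatozoa-like cells 165 ± 6.15, both clear of the spermatid range. Spermatogonia-like cells had the lowest level, 71.8 ± 16.5 CPM.

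Of the CIP/KIP genes, Cdkn1c stood at 246, 246 and 248 CPM in spermatozoa-like cells of UC (247 ± 1.32). The other germ classes were far lower, with 29.7 ± 17.3 CPM in spermatogonia-like, 28.4 in Meiob-led, 18.7 ± 5.25 in spermatid-like and 15.2 ± 11.1 in spermatocyte-like cells. Neighbours in that order overlapped. Cdkn1a was highest in Sertoli-like cells at 69.8 ± 12.9 CPM, and among germ cells in spermatozoa-like cells at 17.2 ± 1.30, a range that overlapped spermatogonia-like cells at 12.7 ± 3.24. It was lowest in spermatocyte-like cells, at 2.86 ± 1.40 CPM. Cdkn1b was at 76.8 ± 13.3 CPM in Sertoli-like cells and at most 2.14 CPM in a germ class.

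**Figure D1:**
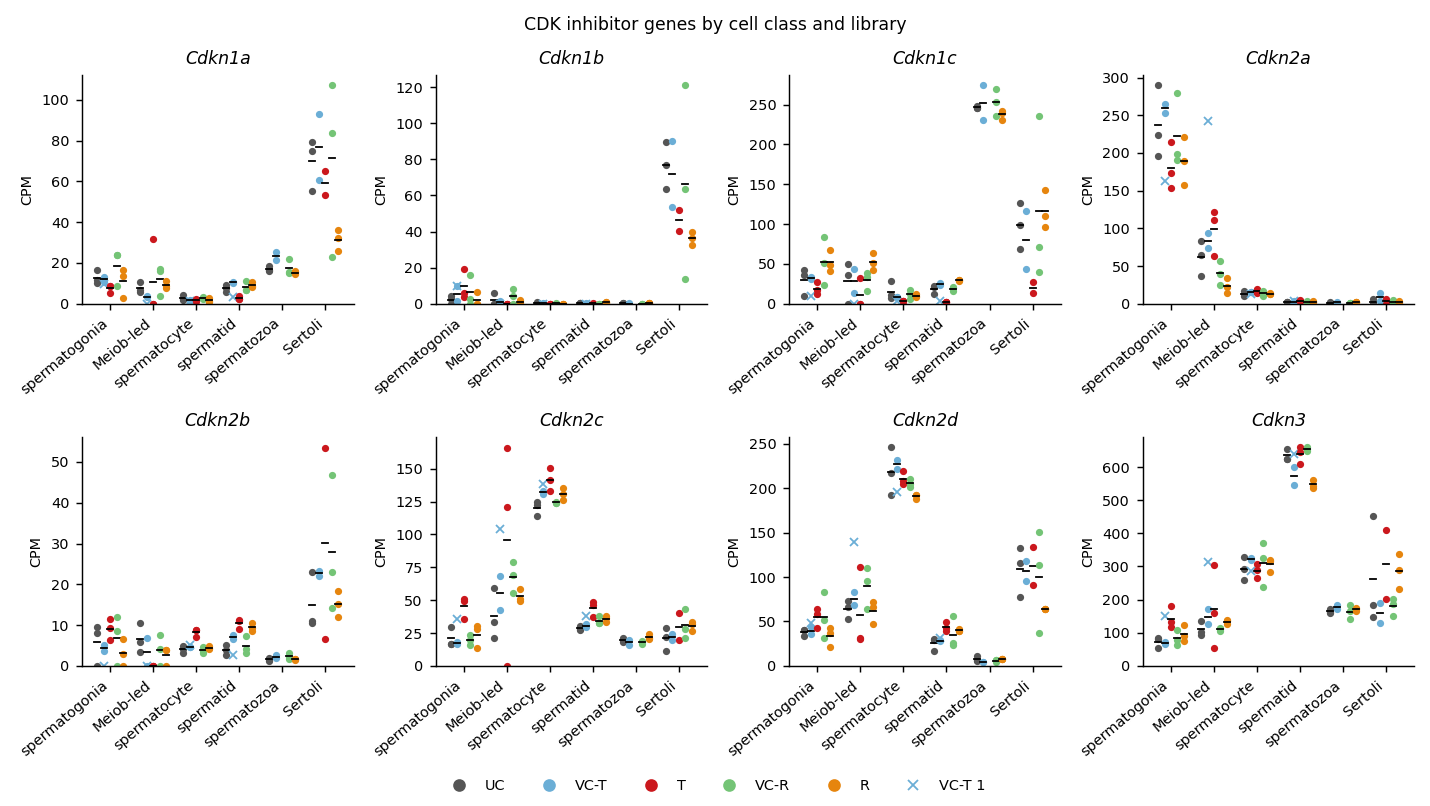
Level of each CDK inhibitor gene (CPM of the class sum, 1 panel per gene) in each cell class, with a point per library coloured by group, a black bar for the group mean without VC-T 1, and a cross for the library labelled VC-T 1; libraries with fewer than 10 cells of a class are not drawn. Cdkn2a peaked in spermatogonia-like cells at 237 CPM in UC, Cdkn2c and Cdkn2d in spermatocyte-like cells at 121 and 219, Cdkn3 in spermatid-like cells at 635, and Cdkn1c in spermatozoa-like cells at 247.

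A finer order came from pseudotime, in which germ cells were ranked by diffusion distance from spermatogonia and cut into 20 bins. In UC Cdkn2a was highest in bin 1 (173 ± 35.4 CPM), Cdkn2c in bin 4 (137 ± 18.2), Cdkn2d in bin 6 (268 ± 5.57) and Cdkn3 in bin 7 (779 ± 46.6). Late in the series, Cdkn2b peaked in bin 12 (10.6 ± 3.55), Cdkn1a in bin 13 (40.4 ± 4.09) and Cdkn1c in bin 18 (272 ± 2.77). Cdkn1c stepped up at the entry to the spermatozoa-like cells: it was at 41.5 ± 7.44 CPM in bin 12 and 183 ± 6.93 CPM in bin 13. Its means ran from 239.8 to 272 CPM over bins 14 to 20, with SDs that made its highest bin no more than a label for this plateau.

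T libraries held fewer than 20 cells in each bin after bin 12, so the later bins have no T value. Up to there the order of the early peaks was the same in T. Cdkn2c peaked in bin 4 at 159.9 ± 15.5 CPM, Cdkn2d in bin 5 at 245 ± 10.9 and Cdkn3 in bin 7 at 706 ± 37.9. In bin 12 Cdkn1c was at 4.67 ± 6.61 CPM in T, from 2 libraries, against 41.5 ± 7.44 in UC. R covered all bins, with Cdkn1c again highest in bin 18 at 264 ± 14.5 CPM and Cdkn3 in bin 8 at 725 ± 33.9.

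**Figure D2:**
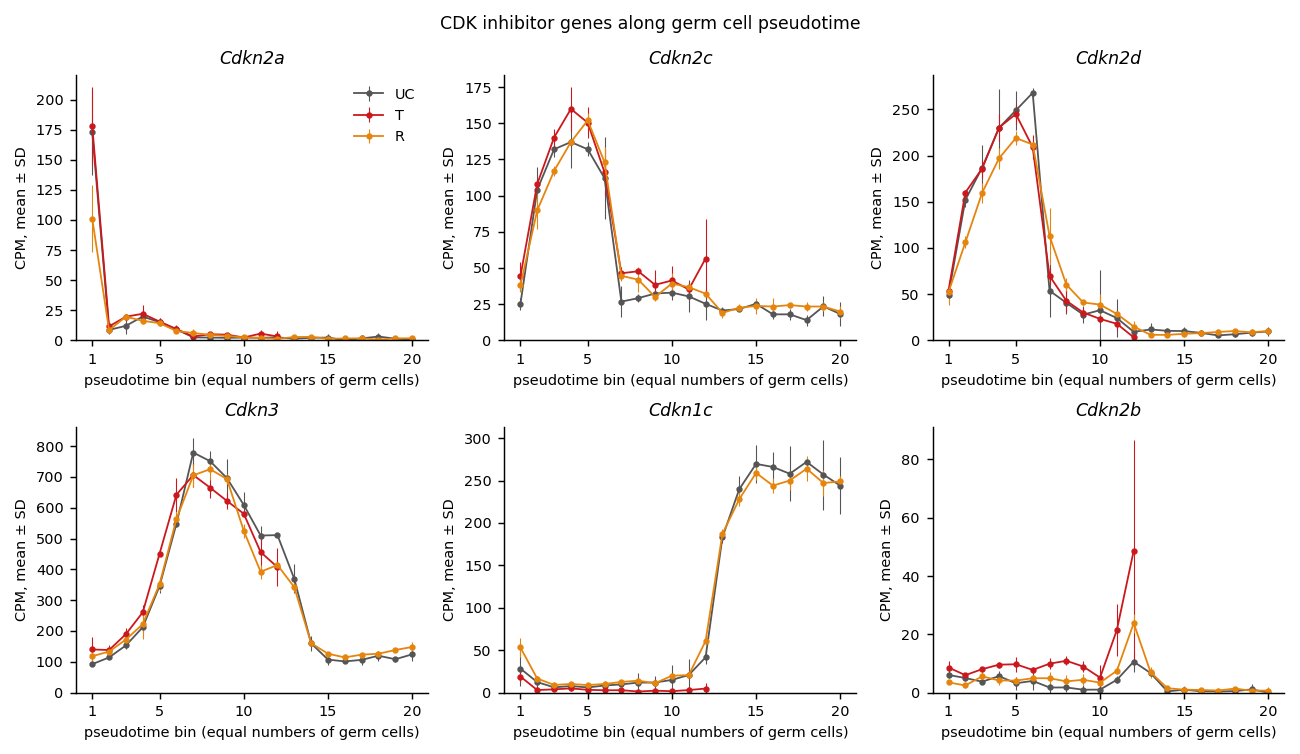
Mean level (CPM) of Cdkn2a, Cdkn2c, Cdkn2d, Cdkn3, Cdkn1c and Cdkn2b over 20 pseudotime bins of germ cells in UC, T and R, with the SD over libraries; bins with fewer than 20 cells in a library leave that library out. In UC the peaks follow each other from Cdkn2a in bin 1 through Cdkn2c in bin 4, Cdkn2d in bin 6 and Cdkn3 in bin 7 to Cdkn1c in bin 18, and the T lines stop at bin 12.

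The genes whose pattern was most like each member were found by Pearson's r of log2(CPM + 1) over 60 points, which are the 20 bins of the 3 UC libraries. Points of a library share its depth, so r is a description. Nearest to Cdkn1c were Prm1 (r = 0.970) and Prm2 (0.970), which encode the protamines that replace histones in sperm, and Ttc24 (0.967). Cdkn2c was nearest to Slc2a3 (0.938), a glucose transporter gene, Magi2 (0.935) and 4930578E11Rik (0.916). Cdkn2d was nearest to Cap1 (0.940), an actin regulator, Snhg3 (0.936) and Snapin (0.936), and Cdkn3 to 1700003H04Rik (0.976), Tmem89 (0.962) and 1700010K23Rik (0.960). Cdkn2a had the loosest likeness, to P4hb (0.865) and Zfp518a (0.845). Among the members, Cdkn2c and Cdkn2d ran together (r = 0.835), while Cdkn1c ran against Cdkn2c (r = -0.703) and Cdkn3 (r = -0.586).

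Cdkn1c in spermatids was the value on which the set was chosen. Spermatid-like cells of T 1, T 2 and T 3 held 1.89, 1.98 and 2.38 CPM of Cdkn1c, from 18, 12 and 7 UMIs. UC 1, UC 2 and UC 3 held 22.6, 12.7 and 20.8 CPM, VC-T 2 and VC-T 3 25.4 and 24.0, and the VC-R libraries 15.8 to 20.5. All T libraries lay below every control library, and the library labelled VC-T 1, at 3.36 CPM, was the control nearest to them. R 1, R 2 and R 3 held 30.1, 29.4 and 28.5 CPM, above every control library.

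On the log2 CPM scale the T mean was 3.18 units below UC, written as a difference of -3.18 (SD 0.23 in T and 0.42 in UC, n = 3 each). The difference was -3.61 against VC-T 2 and VC-T 3 and -2.63 when the library labelled VC-T 1 was included. Since few germ cells of T lay past bin 12, the value was also taken in 344 cells per library drawn to the same pseudotime bins. It was then -2.16 against UC (SD 0.26 in T and 0.69 in UC). Against VC-T 2 and VC-T 3, with 332 cells per library, it was -2.54 (SD 0.92 in T and 0.14 in VC-T). Each matched value rests on 9 Cdkn1c UMIs over the 3 T libraries, beside 68 in UC and 60 in VC-T. All these settings draw on the T spermatid-like cells on which the set was chosen, so their shared sign is a description and not separate evidence. The part of stage within the class was not tested further.

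Cdkn1c was also counted within single spermatid-like clusters. In the cluster led by Cachd1, Cdkn1c counts were 5, 0 and 0 UMIs in T 1, T 2 and T 3, or 5.97, 0 and 0 CPM, where 0 UMIs allow up to 13.8 and 35.2 CPM in T 2 and T 3. The control libraries other than VC-T 1 had 27.3 to 47.2 CPM in that cluster and R had 35.1 to 43.4. T 1 and T 2 lay below these controls, while the limit of T 3 fell within their range, so that a difference was not detectable at its depth. The library labelled VC-T 1 had 5.23 CPM, from 2 UMIs. In the cluster led by 1700041C23Rik, T had 0.731, 1.42 and 2.68 CPM and UC 15.4, 5.33 and 7.31, without overlap. In that led by 1700121L03Rik, T had 0.891, 2.91 and 0 CPM and UC 10.4, 1.48 and 10.5, so the groups overlapped. In that led by 4930509J09Rik every T library had 0 UMIs, which allow up to 17.6, 38.8 and 109 CPM. UC had 53.2, 27.1 and 102 CPM there, so the limits of T 2 and T 3 reached the UC range.

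The other members differed less between T and UC in spermatid-like cells, and again no test was made. Cdkn1a was at 3.78, 2.48 and 2.38 CPM in T against 9.35, 7.52 and 5.73 in UC, a log2 difference of -1.49 that was -0.86 in cells matched on pseudotime. Cdkn2b was at 9.13, 11.1 and 11.2 CPM in T against 3.90, 2.61 and 5.09 in UC, a log2 difference of 1.24 that was 0.40 against VC-T 2 and VC-T 3 and 2.06 in matched cells. For both genes the T and UC ranges did not overlap. Cdkn2a was at 4.09, 3.80 and 4.41 CPM in T and 2.73, 2.61 and 2.33 in UC, again without overlap. Its UC values rest on 7, 8 and 11 UMIs. The log2 difference of Cdkn2a was 0.44, and 1.17 and 0.12 in cells matched on pseudotime against UC and against VC-T 2 and VC-T 3. Cdkn2c averaged 43.9 ± 6.10 CPM in T and 28.6 ± 1.60 in UC, and Cdkn2d 44.0 ± 4.98 and 25.7 ± 7.57. Their ranges did not overlap either: 37.0 to 48.6 CPM in T and 27.6 to 30.4 in UC for Cdkn2c, 39.4 to 49.3 and 17.0 to 30.8 for Cdkn2d. The log2 difference of Cdkn2c was 0.45, and 0.39 and 0.52 in cells matched on pseudotime against UC and against VC-T 2 and VC-T 3. That of Cdkn2d was 0.65, and 0.29 and -0.27 in the matched cells, so it turned direction in matched cells against VC-T 2 and VC-T 3. Cdkn3, which peaks in this class, averaged 638 ± 26.1 CPM in T and 635 ± 17.5 in UC. Its log2 difference was -0.14 (SD 0.06 in T and 0.07 in UC), and 0.01 against VC-T 2 and VC-T 3. In cells matched on pseudotime it was -0.24 against UC and -0.14 against VC-T 2 and VC-T 3.

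Transcripts of late haploid cells moved with Cdkn1c, and were measured as the summed level of 7 genes: Tssk6, Smcp, Oaz3, Odf1, Gapdhs, Prm1 and Prm2. In spermatid-like cells this sum was 3936, 3142 and 3232 CPM in T and 15199, 15319 and 13884 CPM in UC. In spermatozoa-like cells every library held between 0.141 and 0.161 Cdkn1c UMIs per 100 UMIs of the 7 genes. UC spermatid-like cells held 0.149, 0.0832 and 0.150, which is near the spermatozoa-like ratio in UC 1 and UC 3 and lower in UC 2. T spermatid-like cells held 0.0480, 0.0631 and 0.0735, below every library of the other groups, the lowest of which was UC 2. These T ratios rest on the same Cdkn1c UMIs on which the set was chosen, so they are a description and not separate evidence. Prm1 and Prm2, among the 7 genes, were also the nearest to Cdkn1c in UC. R held 0.183, 0.153 and 0.173 per 100.

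Sertoli-like cells held these transcripts as well. Their ratio was 0.158, 0.189 and 0.137 Cdkn1c UMIs per 100 UMIs of the 7 late genes in UC, 0.164, 0.135 and 0.148 in R, 0.171, 0.105 and 0.185 in VC-R, 0.116 and 0.176 in VC-T 2 and VC-T 3, and 0.0841 and 0.177 in T 1 and T 3, from 2 Cdkn1c UMIs each. Over all cells, the 11 libraries with spermatozoa-like cells outside T had 0.142 to 0.162, a narrower range that lies inside that of the Sertoli-like cells. The Cdkn1c levels of 98.2 ± 29.0 CPM in Sertoli-like cells of UC thus stood beside 62899, 67235 and 50168 CPM of late haploid transcripts in the same cells. In spermatocyte-like cells of UC the ratio was 0.141, 0.297 and 0.166, and UC 1, with the highest Cdkn1c level of 27.9 CPM, also had the highest late sum of 19792 CPM against 3493 and 4416 CPM. T spermatocyte-like cells, in which late transcripts were at 434, 153 and 273 CPM, held 0.915, 2.31 and 1.41 Cdkn1c UMIs per 100. The part of free RNA from broken cells in these levels was not tested, beyond the subtraction of 5% free RNA given at the end.

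**Figure D3:**
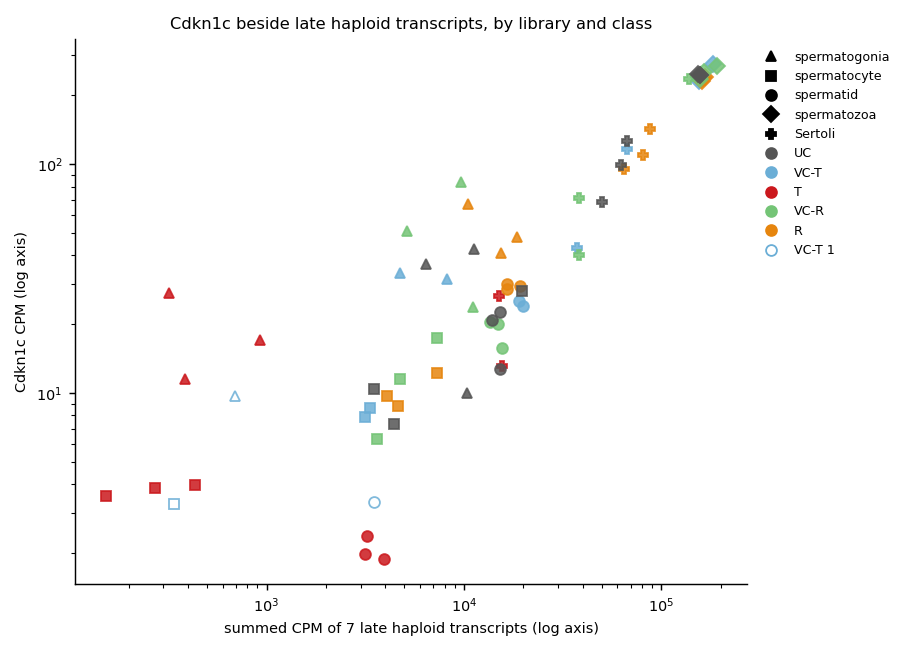
Cdkn1c level against the summed level of 7 late haploid transcripts (both in CPM, log axes), a point per library and cell class, with the library labelled VC-T 1 drawn open. Spermatozoa-like points sit together near 247 CPM of Cdkn1c, Sertoli-like points of UC and R lie along the same ratio, and spermatid-like points of T lie at 1.89 to 2.38 CPM, below UC.

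For the classes other than spermatids, T was compared with UC by edgeR's quasi-likelihood test on class sums, with p-values adjusted by the Benjamini-Hochberg method over all genes tested. A gene was called at an adjusted p under 0.05 and a log2 fold change beyond 1 in size. VC-T comparisons use the same T libraries, and R comparisons the same UC libraries, so they are set side by side and are not independent.

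In spermatogonia-like cells Cdkn2c and Cdkn3 rose in T. Of the 8 genes 5 passed the filter on low counts and 2 were called, beside 416 of 7336 genes (5.67%). Cdkn2c, which encodes p18INK4c, was at 51.2, 36.0 and 49.2 CPM in T and 29.9, 16.3 and 16.5 in UC. The groups did not overlap, but the UC values rest on 3, 4 and 7 UMIs. Its log2 fold change was 1.31 ± 0.40 (SE, n = 3 against 3, edgeR adjusted p = 0.0476). Cdkn3 was at 181, 131 and 116 CPM in T and 79.9, 52.9 and 82.7 in UC, with a log2 fold change of 1.03 ± 0.26 (edgeR adjusted p = 0.0156).

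Against VC-T 2 and VC-T 3, where 904 of 9487 genes (9.53%) were called, Cdkn2c gave a log2 fold change of 1.36 (edgeR adjusted p = 0.0165) and Cdkn3 1.05 (edgeR adjusted p = 0.0112). The library labelled VC-T 1 had 35.8 CPM of Cdkn2c and 149.6 CPM of Cdkn3, within or near the T range, and with it in the control 0 of 8615 genes were called by edgeR (0%), 403 having an unadjusted p under 0.05. Cdkn2c was then at 1.06 and Cdkn3 at 0.64 (edgeR adjusted p = 0.864 for both). DESeq2 called neither gene against UC. With single libraries left out of the comparison with UC, Cdkn2c was no longer called without T 1 (1.12), T 3 (1.28), UC 1 (1.45), UC 2 (1.19) or UC 3 (1.18), at edgeR adjusted p of 0.0613 to 0.231. Cdkn3 was no longer called without T 1 (0.73), UC 2 (0.81) or UC 3 (1.29), at edgeR adjusted p of 0.0521 to 0.128.

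Cell composition moved with these values. The 7 spermatocyte markers summed to 1448, 1321 and 1450.0 CPM in spermatogonia-like cells of T and 1168, 1046 and 1078 CPM in UC, with no overlap, while the spermatogonia markers summed to 1567, 1973 and 1641 against 2116, 2047 and 1879.6 CPM. Meiob-led cells numbered 23, 11 and 13 in T, beside 375, 258 and 205 spermatogonia-like cells. In UC they numbered 41, 50 and 122 beside 40, 103 and 156, and in VC-T 1 19 beside 177. VC-T 2 and VC-T 3 held 122 and 125 beside 122 and 261. Both Cdkn2c and Cdkn3 stood higher in spermatocyte-like than in spermatogonia-like cells of UC. In 40 cells per library matched on pseudotime 2 members could be tested and 0 were called, with Cdkn3 at 1.02 (edgeR adjusted p = 0.0781), and 2 of them had an unadjusted p under 0.05. Cdkn2c did not pass the filter on low counts in these cells and was not tested. The part of cell composition in the difference was not tested further.

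The other members tested in spermatogonia-like cells were not called. Cdkn2a, the INK4 gene that marks this class, was at 174, 214 and 153 CPM in T and 289.5, 224 and 196 in UC, with a log2 fold change of -0.29 ± 0.19 (edgeR adjusted p = 0.431). In cells matched on pseudotime it passed the adjusted p but not the fold limit (-0.96 ± 0.32, edgeR adjusted p = 0.0281), and it gave -0.55 ± 0.17 against VC-T 2 and VC-T 3 (edgeR adjusted p = 0.0516). Cdkn1c gave -0.89 ± 0.44 (edgeR adjusted p = 0.267) and Cdkn2d 0.58 ± 0.33 (edgeR adjusted p = 0.342).

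Partners and regulators of the CDK inhibitors were taken from 5 fixed lists. In spermatogonia-like cells of T, 0 of 13 CDK and cyclin genes tested were called against UC, 0 of 9 RB and E2F genes, 0 of 9 genes of the p53 axis and 0 of 5 neighbours of Cdkn1c in the Kcnq1 domain, with list medians of 0.03 to 0.09 on the log2 scale beside 0.00 over all genes. Of 11 CDK activators and turnover genes 1 was called. It was Spdya, which encodes a cyclin-like activator of CDK2 at meiotic telomeres, at 65.6, 72.0 and 86.8 CPM in T and 18.9 to 24.4 in UC (log2 fold change 1.80 ± 0.34, edgeR adjusted p = 0.00177). Against VC-T 2 and VC-T 3 Spdya rose by 2.42 (edgeR adjusted p = 0.000324) and Ccna1, the germ cell cyclin A gene, by 1.14 (edgeR adjusted p = 0.0289). Neither was called with VC-T 1 in the control, at 1.19 and 0.86 (edgeR adjusted p = 0.864 for both). Kcnq1ot1, at 136, 152 and 139 CPM in T and 259.6, 248 and 203 in UC, passed the adjusted p but not the fold limit (-0.68 ± 0.18, edgeR adjusted p = 0.0189) and gave -0.20 (edgeR adjusted p = 0.544) against VC-T 2 and VC-T 3.

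In spermatocyte-like cells 0 of 7 tested members were called against UC by edgeR's quasi-likelihood test, beside 100 of 12055 genes (0.830%). At an unadjusted p under 0.05 there were 3, and DESeq2 called 1. Cdkn1c was at 3.97, 3.54 and 3.85 CPM in T and 27.9, 10.4 and 7.32 in UC, where UC 1 stood far above the others. The T libraries lay below all 3 UC libraries, and the log2 fold change was -2.19 ± 0.53 (edgeR adjusted p = 0.0785). Without UC 1 it was -1.31 (edgeR adjusted p = 0.0167), and DESeq2 gave -2.20 with all 3 UC libraries (DESeq2 adjusted p = 0.00362).

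Against VC-T 2 and VC-T 3, at 7.89 and 8.59 CPM, Cdkn1c fell in T by 1.30 on the log2 scale (edgeR adjusted p = 0.00972), in a comparison that called 576 of 12503 genes (4.61%). With the library labelled VC-T 1, at 3.27 CPM, it gave -0.88 (edgeR adjusted p = 0.309), in a comparison that called 26 of 12915 genes (0.201%). In cells matched on pseudotime the value against UC was -1.28 (edgeR adjusted p = 0.0362). After subtraction of free RNA it was -1.51 ± 0.96 (edgeR adjusted p = 0.431).

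Cdkn2b was at 7.02, 8.73 and 8.92 CPM in spermatocyte-like cells of T and 4.93, 4.07 and 3.20 in UC, without overlap. Its log2 fold change of 0.85 ± 0.25 did not pass (edgeR adjusted p = 0.11), and without UC 1 it was 1.07 (edgeR adjusted p = 0.044). Cdkn2d, which peaks in this class, gave -0.20 (edgeR adjusted p = 0.194). Against UC 0 list genes were called, of 10 tested CDK and cyclin genes, 10 RB and E2F genes, 13 activators, 11 genes of the p53 axis and 5 of the Kcnq1 domain. Against VC-T 2 and VC-T 3 the p53 axis had 3 of 11 genes called, all higher in T: Trp63 (log2 fold change 1.44, edgeR adjusted p = 0.0335), a p53 relative that guards germ cells, Pmaip1 (1.77, adjusted p = 0.0441), a proapoptotic BH3 gene, and Plk2 (2.42, adjusted p = 0.021), a polo-like kinase gene. The median over those 11 genes was 0.77, beside 0.02 over all genes, and these 3 genes did not pass against UC. With VC-T 1 in the control they gave 1.29, 1.72 and 1.73 and were not called (edgeR adjusted p = 0.138, 0.12 and 0.138).

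Sertoli-like cells of T were few. T 2 had 8 and was left out, so 2 T libraries faced 3 of UC, and 0 of 5 tested members were called by edgeR, beside 54 of 4005 genes (1.35%). DESeq2 called 0, but it gave no adjusted p for Cdkn1a, Cdkn1b and Cdkn1c and so could not call them. By edgeR 1 member had an unadjusted p under 0.05. That member was Cdkn1c, at 13.1 and 26.7 CPM in T 1 and T 3 from 2 UMIs each, with a log2 fold change of -2.63 ± 0.75 (edgeR adjusted p = 0.133). Late haploid transcripts in these cells were at 15523 and 15108 CPM in T 1 and T 3, against 50168 to 67235 CPM in UC. Cdkn1a and Cdkn1b, at 65.3 and 53.5 CPM and at 52.2 and 40.1 CPM in T 1 and T 3, gave -0.51 ± 0.58 and -0.97 ± 0.61 (edgeR adjusted p = 0.998 and 0.856). None of the list genes was called.

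**Figure D4:**
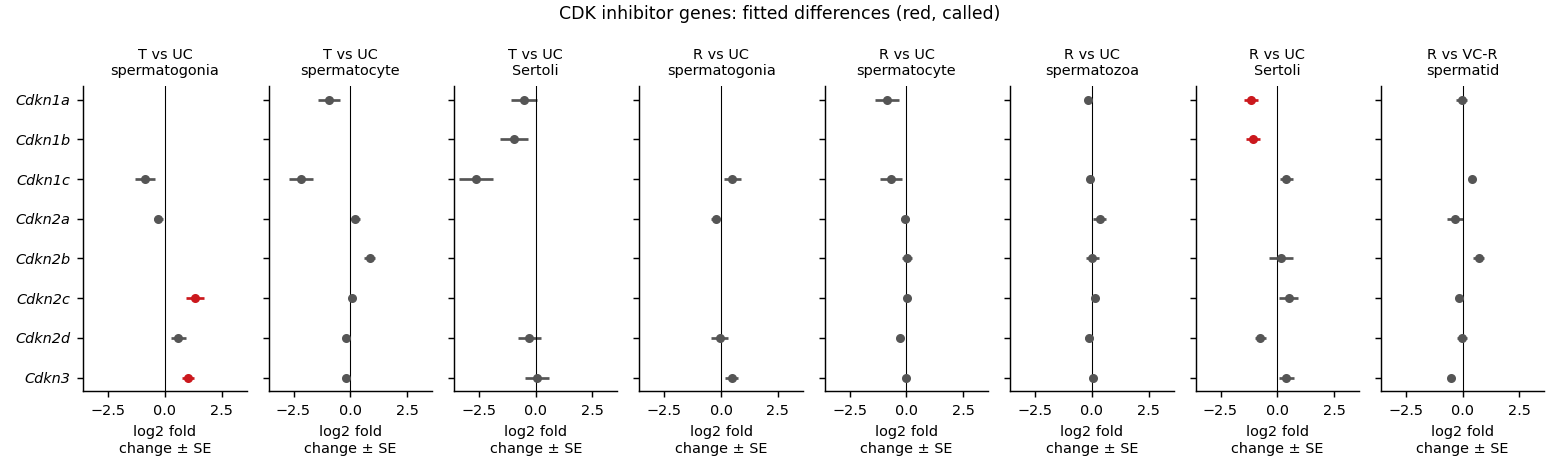
Log2 fold change with SE from edgeR's quasi-likelihood test for each tested CDK inhibitor gene in 8 comparisons of class sums, red where called at an adjusted p under 0.05 and a log2 fold change beyond 1 in size. Red points are Cdkn2c at 1.31 and Cdkn3 at 1.03 in spermatogonia-like cells of T against UC, and Cdkn1a at -1.15 and Cdkn1b at -1.07 in Sertoli-like cells of R against UC.

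After 6 wk without JQ1 the germ cell classes held no called member. In spermatogonia-like cells of R 0 of 4 tested members were called against UC, with 0 at an unadjusted p under 0.05 by edgeR and 0 called by DESeq2, beside 37 of 6429 genes (0.576%). DESeq2 gave no adjusted p there for Cdkn1c and Cdkn2d and so could not call them. In spermatocyte-like cells 0 of 7 were called, beside 0 of 13117 genes (0%), while 975 genes and 1 member had an unadjusted p under 0.05 in edgeR, and DESeq2 called 0 genes. The member was Cdkn2d, at 188, 192 and 193 CPM in R and 193, 217 and 246 in UC (log2 fold change -0.27 ± 0.08, edgeR adjusted p = 0.584). No list gene was called in spermatogonia-like or spermatocyte-like cells of R.

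Spermatozoa-like cells, nearly absent from T, were present in R. There 0 of 7 tested members were called by edgeR, 0 by DESeq2 and 0 had an unadjusted p under 0.05, beside 86 of 12773 genes (0.673%). For Cdkn2a and Cdkn2b DESeq2 gave no adjusted p and so could not call them. Cdkn1c was at 239.6, 242 and 231 CPM in R 1, R 2 and R 3 and 246, 246 and 248 in UC. The R values lay just below UC, with a log2 fold change of -0.08 ± 0.06 (edgeR adjusted p = 0.534). Of the lists only Cdk4 was called, 1 of 9 CDK and cyclin genes at a low level of at most 0.763 CPM in UC (log2 fold change 1.83 ± 0.56, edgeR adjusted p = 0.0431). It was not called against VC-R.

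Spermatid-like cells of R were compared with VC-R, since UC entered the values on which the genes were chosen. Of 7 tested members 0 were called by edgeR and 0 by DESeq2, while 3 had an unadjusted p under 0.05, beside 625 of 14547 genes called (4.30%). Cdkn3 was at 538, 560.2 and 544 CPM in R and 654, 647 and 659 in VC-R, without overlap. Its log2 fold change of -0.50 ± 0.11 passed the adjusted p but not the fold limit (edgeR adjusted p = 0.0258). Cdkn1c gave 0.41 ± 0.15 (edgeR adjusted p = 0.0885). Cdkn2b, at 10.6, 8.66 and 9.19 CPM in R and 7.31, 4.11 and 3.10 in VC-R, gave 0.71 ± 0.25 (edgeR adjusted p = 0.0815), and was called only without VC-R 1 (1.05, edgeR adjusted p = 0.00181).

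These differences moved with 3 spermatid-like clusters of low UMI content. Of the 2710, 1916 and 1720 cells in these clusters, 2099, 1540 and 1237 came from R, which had 7095 spermatid-like cells in all. Without them 0 of 13123 genes were called, Cdkn3 was at -0.13 (edgeR adjusted p = 0.968), Cdkn1c at -0.05 (adjusted p = 0.984) and Cdkn2b at 0.36 (adjusted p = 0.968). In 513 cells per library matched on pseudotime the values were -0.18, -0.04 and 0.00. Kcnq1ot1, called in all spermatid-like cells at 109, 74.8 and 115 CPM in R and 56.2, 33.1 and 30.6 in VC-R (log2 fold change 1.08, edgeR adjusted p = 0.0185), was at -0.04 (adjusted p = 0.986) without the 3 clusters.

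The lists followed the same course in spermatid-like cells of R. Called were 2 of 7 genes of the Kcnq1 domain, Kcnq1 (log2 fold change 1.17, edgeR adjusted p = 0.0142) and Kcnq1ot1, and 2 of 9 of the p53 axis, Trp63 (1.11, adjusted p = 0.0396) and Plk2 (1.26, adjusted p = 0.0396). None was called among 11 CDK and cyclin, 9 RB and E2F and 12 activator genes. The Kcnq1 domain median was 0.42 and that of the p53 axis 0.33, beside -0.04 over all genes, and without the low-UMI clusters no list gene was called.

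Sertoli-like cells of R gave the other called members. Cdkn1a and Cdkn1b fell against UC, 2 of 7 tested members, in a comparison that called 1562 of 8153 genes (19.2%), so the members' share is not far from that of all genes. Cdkn1a was at 36.0, 26.0 and 32.2 CPM in R and 55.1, 74.9 and 79.3 in UC, without overlap (log2 fold change -1.15 ± 0.31, edgeR adjusted p = 0.0158). Cdkn1b, the gene of p27, was at 40.0, 36.3 and 32.8 CPM in R and 77.1, 63.4 and 89.9 in UC (-1.07 ± 0.29, edgeR adjusted p = 0.0176). Cdkn2d passed the adjusted p but not the fold limit (-0.75 ± 0.25, edgeR adjusted p = 0.0455).

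VC-R libraries spread widely for the same genes, with 23.1, 83.5 and 107 CPM of Cdkn1a and 13.9, 63.4 and 121 CPM of Cdkn1b, and R against VC-R called 0 of 8020 genes by edgeR (0%), 1308 having an unadjusted p under 0.05. The values in that comparison were -1.12 for Cdkn1a (edgeR adjusted p = 0.24) and -0.74 for Cdkn1b (edgeR adjusted p = 0.43). Against UC, Cdkn1a was no longer called without R 2 (-0.97), R 3 (-1.07), UC 2 (-1.08) or UC 3 (-0.94), and Cdkn1b without R 2 (-0.99), R 3 (-0.87), UC 1 (-0.92) or UC 3 (-0.76). Without UC 1 Cdkn3 was called, higher in R (log2 fold change 1.08, edgeR adjusted p = 7.9e-05), in a setting that called 3835 genes. With all libraries Cdkn3 gave 0.39 ± 0.33 (edgeR adjusted p = 0.386). The make-up of the class moved with these levels. A cluster led by Clu, a secreted chaperone gene abundant in Sertoli cells, made up 5.41%, 19.7% and 43.8% of Sertoli-like cells in UC, 0%, 20.2% and 56.9% in VC-R and 1.96%, 3.08% and 0.537% in R. Summed Sertoli markers were at 6368, 5910.4 and 5299 CPM in R and 5289, 11454 and 12129 in UC, and late haploid transcripts at 87404, 80978 and 64791 against 62899, 67235 and 50168.

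Taken within the Clu-led cluster alone, Cdkn1a was at 32.6, 41.0 and 59.6 CPM in R, from 2, 6 and 7 UMIs. In the UC libraries with at least 10 cells it was at 166 and 125 CPM, from 11 and 27 UMIs. Cdkn1a gave -1.51 there (edgeR adjusted p = 0.196). Cdkn1b gave -0.45 there (edgeR adjusted p = 0.784). In the other Sertoli-like clusters Cdkn1a was at 36.2, 24.6 and 31.6 CPM in R and 23.5, 18.6 and 18.6 in UC, so there the R libraries lay above UC, whose values rest on 2, 2 and 3 UMIs. Cdkn1b was at 39.5, 32.6 and 31.2 CPM in R and 23.5, 55.9 and 31.0 in UC in those clusters, where the groups overlapped. The part of class make-up was not tested.

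List genes called in Sertoli-like cells of R against UC were all lower in R, as were 1203 of the 1562 genes called there (19.2% of those tested). They were 4 of 7 genes of the p53 axis, including Trp53 (log2 fold change -1.86, edgeR adjusted p = 0.00258) and Sesn1 (-2.38, adjusted p = 0.00123), and 3 of 5 RB and E2F genes, including Rb1 (-1.31, adjusted p = 0.0243) and Tfdp2 (-1.51, adjusted p = 0.00592). Of the activators 3 of 12 were called, among them Wee1 (-1.32, adjusted p = 0.0258), the inhibitory kinase of CDK1, and Fbxw7 (-1.40, adjusted p = 0.0162), a ubiquitin ligase adaptor for cyclin E. Of the Kcnq1 domain 2 of 4 were called, Kcnq1ot1 (-1.31, adjusted p = 0.046) and Cd81 (-1.81, adjusted p = 0.00117), and of 8 CDK and cyclin genes 0. List medians ran from -1.36 to -0.05, beside 0.03 over all genes, and no list gene was called against VC-R or within the Clu-led cluster.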

How the data were processed

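Single-cell RNA was sequenced by the authors from 1 testis of each of 15 mice with a 10x Genomics 3′ kit. The authors deposited whole, unscaled UMI counts for every gene and cell barcode, made by alignment to mm10 with STAR in Cell Ranger; the submitters' processing notes name version 3.0.0, while the headers of the matrices name a later version that counts intron reads by default. Whether intron reads were counted is not given in the sources used here, which bears on unspliced RNAs such as Kcnq1ot1. No batch is named in the labels.

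Barcodes needed 500 or more genes, 1000 or more UMIs and a mitochondrial share under 30%. Removed were the 5.4% with the highest Scrublet doublet scores per library. Cells were clustered with scanpy 1.11.5 in Python 3.11.15 (2000 variable genes without the 8 members, 30 components, 20 neighbours, Leiden resolution 1.2 with leidenalg 0.10.2, seed 1). Clusters were named from fixed markers, at least 3 of them detected in 10% of cells, and 4576 cells stayed unnamed. Pseudotime was diffusion pseudotime in 20 bins.

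UMIs were summed per library and class with at least 10 cells and tested with edgeR 4.0.16 in R 4.3.3 (TMM, quasi-likelihood test, edgeR's filter on low counts, Benjamini-Hochberg over all genes tested). The labels number the replicates, and the study states that 1 testis was taken per animal, so p-values measure the spread between mice. Alternatives were DESeq2 1.42.0, RLE factors, no filter, each library left out, a replicate block, all groups in 1 fit, subtraction of 5% free RNA, doublets kept, the vehicle control with and without VC-T 1, and cells matched on pseudotime. Added after the data were seen were the Clu-led cluster alone, the omission of clusters whose median UMIs were under 0.65 of their library's, and VC-T matching. The script was tested on simulated counts. Intervals and floors (3 UMIs) cover counting error only.

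Named are all 8 members, list genes called (at most 6 per list and comparison, by adjusted p), Kcnq1ot1, and for members reaching 20 CPM in a germ class of UC the 3 genes with the highest r over the UC bins, among genes with a mean of at least 10 CPM; 1 such gene is not reported here. Members and lists were chosen with earlier results of these data known.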

Additional observations from a re-analysis of the deposited data

Results flagged for a closer look

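Cdkn1c in spermatid-like cells went in opposite directions from UC in T and in R. Every T library lay below every UC library and every R library above, and the R mean of 29.3 CPM was 14.1 times the T mean of 2.08 CPM. The difference between both effects was not tested, because the lower level in T chose the gene and both share the UC libraries. R differed from its own vehicle group by 0.41 on the log2 scale, and by -0.05 without the 3 low-UMI clusters.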

How the results depend on the processing

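In T against UC 2 members were called in spermatogonia-like cells, and 1 with RLE factors, no filter, all groups in 1 fit or free RNA subtracted, 0 with DESeq2, matched cells or the vehicle control that includes VC-T 1, and 0 to 2 with a library left out. In spermatocyte-like cells 0 were called, and 1 with DESeq2, no filter, all groups in 1 fit, doublets kept, the vehicle control or matched cells, and 0 to 2 with a library left out. In Sertoli-like cells of R 2 were called, and 0 with no filter, all groups in 1 fit, VC-R as control or the Clu-led cluster alone, and 0 to 2 with a library left out. Without UC 1 the 2 called were Cdkn1a, lower in R, and Cdkn3, higher in R. In spermatids of R against VC-R 0 were called, and 1 with no filter (Cdkn1b, which had 0 UMIs in all VC-R libraries) and 0 to 1 with a library left out. The Cdkn1c difference in spermatids of T was -3.18, and -3.61 against VC-T 2 and VC-T 3, -2.63 with VC-T 1, -2.16 matched, -2.54 matched against VC-T, -2.66 with free RNA subtracted, and -3.44 to -3.02 with a library left out. Beyond the settings named in the report, the cause was not tested.

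Same-numbered libraries were not shown to be paired: with 3 pairs, no comparison had every correlation of deviations over 0.1 (0.69, 0.45 and 0.03 in spermatocyte-like cells of T and UC). Sertoli-like cells of T and UC had only 2 pairs, with correlations of 0.56 and 0.55. With a replicate block 223 genes were called in that comparison, against 54 without it, and 0 members in both. A replicate block gave 0 called members in spermatogonia-like cells of T, 1 in spermatocyte-like cells and 0 in Sertoli-like cells of R, and moved no other count of called members. No sign of a member reversed among the settings run for called members and for the Cdkn1c difference. For Cdkn1c those settings draw on the T cells on which the set was chosen, so the kept sign is not separate evidence.

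Counts over all genes ranged more widely: 0 to 904 around 416 for spermatogonia-like cells of T, 1 to 619 around 100 for spermatocyte-like, 0 to 223 around 54 for Sertoli-like, 0 to 234 around 37 for spermatogonia-like cells of R, 0 to 73 around 0 for spermatocyte-like, 0 to 125 around 86 for spermatozoa-like, 0 to 3835 around 1562 for Sertoli-like and 0 to 1835 around 625 for spermatids of R against VC-R. The germ class with the highest UC level was the same for all 8 members with free RNA subtracted. It was the same for 7 of 8 members with doublets kept or with 8 control libraries used, the exception being Cdkn2b. Depth limited the low members: Cdkn1b did not pass the filter in any germ class, and UC spermatogonia-like cells gave 3 to 7 UMIs of Cdkn2c.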
